A study of Bos taurus with 10 samples.

Results

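Total RNA of a bovine liver was compared with total RNA of bovine brain, heart, kidney, lung, muscle and spleen, all hybridised to a human gene expression array. The comparison took 7 of the 10 arrays of the series, with 1 array per tissue, chosen by their titles. The 3 remaining arrays held pooled RNA of embryos made by in vitro fertilization, and they entered the normalization but not the comparison. The series calls the tissues adult and names no treatment, and the labels used here give no breed, sex, age or number of animals. Nothing says whether the tissues came from separate animals. With a single liver, each test asks whether this liver array lay outside the spread of the 6 other tissues, and a p-value measures only that spread. Bovine RNA was read by probe sets built for human genes, so genes carry human symbols. Low signal can come from sequence mismatch or from little transcript, and these cannot be told apart. Which bovine transcript gave a high signal was not tested either. In whole tissue, fewer cells of a type and less RNA per cell cannot be told apart.

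The liver is made mostly of hepatocytes, which secrete albumin, clotting factors, protease inhibitors, complement and lipoproteins into the blood. Hepatocytes also break down amino acids, make urea and bile acids, oxidise foreign compounds, and store and release glucose. In cattle little glucose is absorbed from the gut, and the liver makes most of it, largely from propionate formed by rumen microbes.

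Of 22283 probe sets on the array, 10219 had a value on every array, and 10186 of these were analysed after leaving out 33 control sets. As deposited, the median intensity was 99.2 in liver, the lowest of the series, and 110.2 to 183.3 in the 6 other tissues. The 100 brightest probe sets held 16% of the summed intensity in liver and 8.32% to 12% in the other tissues. The 5′ over 3′ ratio of the control probe sets, a sign of RNA integrity, was 0.358 in liver for GAPDH against 0.287 to 0.471 elsewhere. For ACTB it was 0.838 in liver, 2.65 in heart and 1.52 in muscle, so heart and muscle stood apart on that control. Values below are intensities after quantile normalization of all 10 arrays. Differences are liver minus the mean of the 6 tissues on the scale log2(intensity + 72), so changes at low intensity come out smaller than they are. A standard error (SE) follows each, and adjusted p-values are from limma with Benjamini-Hochberg adjustment over all 10186 probe sets.

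The 3 hepatocyte markers with values were each higher in liver by their brightest probe set. ALB, albumin, read 429.9 in liver and 2.67 in brain, 5.36 in heart, 4.50 in kidney, 1.30 in lung, 7.64 in muscle and 11.97 in spleen. The difference was 2.70 ± 0.29 (adjusted p = 0.00185), and no tissue came near the liver. The dimmer ALB probe set read 75.85 in liver and 19 to 109.4 elsewhere (0.19, adjusted p = 0.935), so liver lay inside the range there, and the mean over both was 1.44 (adjusted p = 0.0511). APOA1, the main protein of high-density lipoprotein, read 789.1 in liver and 115.3, 111.3, 116.4, 204.1, 76.58 and 155.6 in brain, heart, kidney, lung, muscle and spleen. It was higher by 2.12 ± 0.33 (adjusted p = 0.00997), and its dimmer probe set by 2.06 (adjusted p = 0.00488). FGB, the beta chain of fibrinogen, read 1222 in liver, 160 in kidney and 1.88 to 6.15 in the other 5 tissues. The difference was 3.82 ± 0.65 (adjusted p = 0.0144), with kidney the only other tissue above the dim range. SERPINA1 was not analysed here. With an offset of 1 in place of 72 the adjusted p of ALB, APOA1 and FGB was 0.092, 0.0524 and 0.148, and their differences were 6.25, 2.66 and 7.08. Without heart and muscle the adjusted p of FGB was 0.0808.

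**Figure D1:**
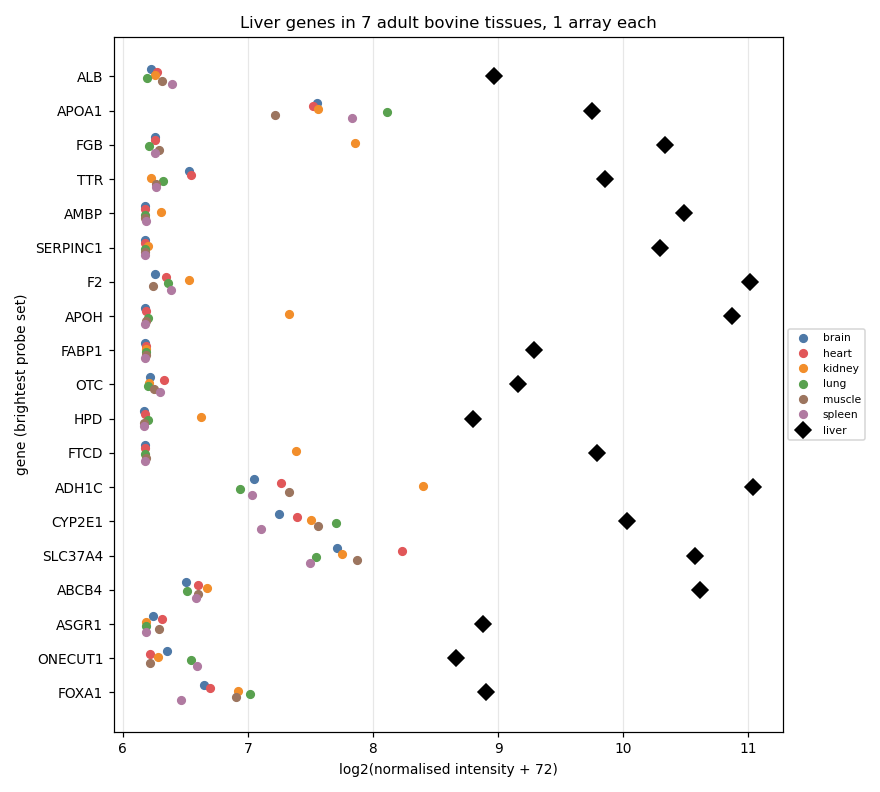
Normalised intensity on the scale log2(intensity + 72) of the brightest probe set of 19 liver genes, with liver as a black diamond and each of the 6 other tissues, 1 array each, as a coloured dot. Liver lies to the right of all 6 tissues for every gene drawn. Kidney is the nearest, with an intensity above 72, for FGB, APOH, FTCD and ADH1C. It is also the nearest, with an intensity below 72, for AMBP, SERPINC1, F2, HPD and ABCB4.

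At an adjusted p below 0.05, limma called 506 probe sets higher in liver (4.97% of those tested) and 29 lower (0.285%). Without adjustment 936 were higher and 364 lower at p below 0.05. Liver was at least 2-fold above the brightest of the 6 tissues for 584 probe sets (5.73%) and at least 2-fold below the dimmest for 68 (0.668%). By this second rule, which has no test, liver had more such probe sets than any other adult tissue. The same count was 420 above and 25 below for brain, 343 and 25 for muscle, 204 and 14 for heart, 156 and 5 for lung, 83 and 5 for spleen, and 78 and 1 for kidney. Of the 506 probe sets, 304 (60.1%) had all 6 tissues below the offset of 72. Of all calls 94.6% were higher with the offset of 72, and 61.9% with an offset of 1, which left 86 higher and 53 lower.

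Genes with a single symbol numbered 6732, each represented by its brightest probe set. Of these, 329 were higher (4.89%) and 24 lower (0.357%), 377 lay at least 2-fold above all 6 tissues (5.60%) and 54 below (0.802%), and the median difference was -0.14. The 19 lists of genes known for liver work held 284 genes with values. Among them 49 were higher (17.3%) and 0 lower, with a median of 0.62. Genes of no liver list numbered 6448, with 280 higher (4.34%), 24 lower and a median of -0.15. Liver was the brightest of the 7 tissues for 123 of the 284 (43.3%) against 1108 of all genes (16.5%), and the dimmest for 23 against 1470 (21.8%). A further 9 list genes had only a dimmer probe set called higher, among them HPX, F5, CFB, ADH6 and CYP1A2 (all but CFB chosen after their values were seen). With an offset of 1 only 9 list genes were called, namely F2, SERPINC1, C3, ALDH1L1, SLC37A4, ABCB4, SLC27A5, ADH1C and CYP2E1, and the calls of the other list genes given below did not hold at that setting.

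**Figure D2:**
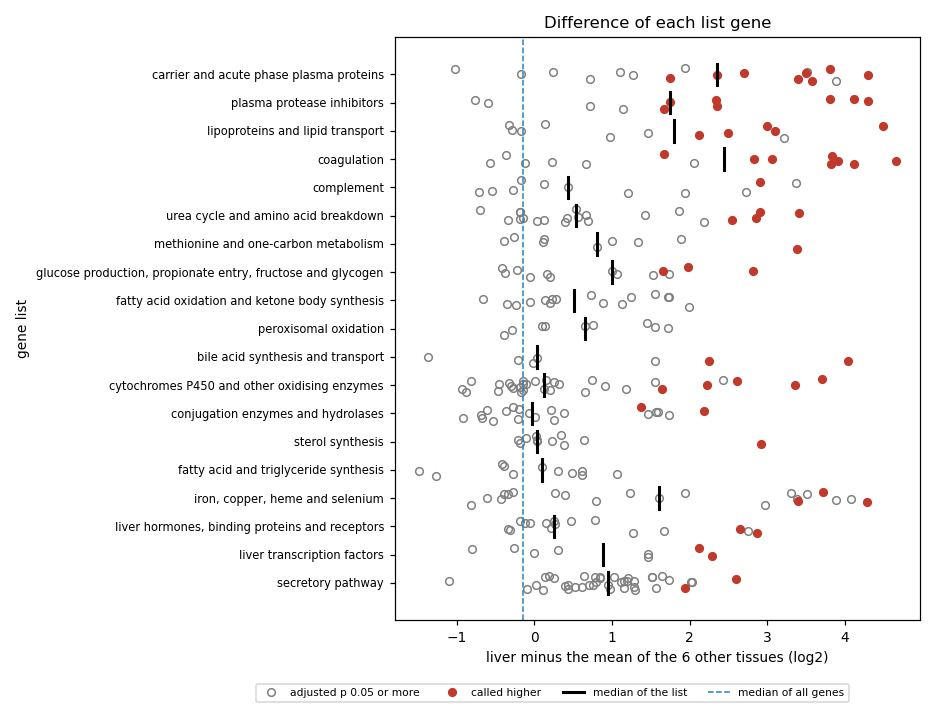
Liver minus the mean of the 6 other tissues (log2) for each gene with a value in the 19 liver lists, with filled dots for genes called higher, open dots for the rest, a bar at each list's median and a dashed line at the median of all genes (-0.14). The lists of plasma proteins reach the highest medians, 2.35 for carriers and acute phase proteins and 2.44 for coagulation.

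Carriers and acute phase proteins of plasma were higher in liver for 8 of 17 genes with values, and liver was the brightest tissue for 14. Their median difference was 2.35. AMBP, the precursor of the protease inhibitor bikunin, read 1364 in liver, 7.33 in kidney and 0.485 to 0.7 in the other 5 tissues (4.29 ± 0.29, adjusted p = 0.000363). Its dimmer probe set read 155.9 against 63.82 to 153.7 (0.36, adjusted p = 0.805), a much smaller gap. TTR, which carries thyroid hormone and vitamin A's binding protein, read 854.4 in liver and 20.64, 21.27, 2.99, 8.19, 4.95 and 4.82 in brain, heart, kidney, lung, muscle and spleen (3.50 ± 0.31, adjusted p = 0.000927). SERPINA6, the cortisol carrier, read 904.8 against 0.71 to 17.27 (3.58 ± 0.30, adjusted p = 0.000758). HP, haptoglobin, which binds free hemoglobin, read 909.1 against 8.515 to 43.23 (3.39 ± 0.32, adjusted p = 0.00118). HP was chosen after its values were seen, as was ITIH2, which with ALB, ITIH4 and ITIH3 completes the genes called in this list. The iron and copper carriers were less separated from kidney. TF, transferrin, read 1953 in liver, 606.6 in kidney, 193.8 in brain and 14.8 to 108.5 in the rest (3.51 ± 1.03, adjusted p = 0.145), and CP, ceruloplasmin, read 1692 in liver, 260.3 in kidney and 183.2 in spleen (3.89, adjusted p = 0.0697). Without kidney both were called, at 3.90 (adjusted p = 0.0247) for TF and 4.19 (adjusted p = 0.0328) for CP. Kidney was the brightest of the 6 tissues for both genes. Leaving out the brightest tissue raises a difference by construction, here and for later genes, so such calls are no separate support. The dimmer TF probe set was 0.36 (adjusted p = 0.909), with heart brighter than liver at 404.2 against 252.3.

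Of the plasma protease inhibitors 7 of 11 were higher, with a median of 1.75. SERPINC1, antithrombin, the main brake on thrombin, read 1184 in liver and at most 1.6 elsewhere (4.11 ± 0.28, adjusted p = 0.000363). ITIH4, an inter-alpha-trypsin inhibitor heavy chain, read 951 in liver and at most 1.6 elsewhere (3.81, adjusted p = 0.000473), and its dimmer probe set was also higher (2.14, adjusted p = 0.00851). SERPINA3, antichymotrypsin, was higher by 2.34 (adjusted p = 0.00549). ITIH3 was higher by 2.35, ITIH2 by 1.75 and SERPINF2, antiplasmin, by 1.67, each with liver at least 2-fold above all 6 tissues. The call of SERPINF2 was lost without heart, lung or spleen in turn (adjusted p of 0.0584 to 0.0638). The 4 members not called included SERPINA4, which read 27.67 in liver against 40.61 to 149, below every other tissue (-0.76, adjusted p = 0.626). SERPINA3, SERPINF2 and SERPINA4 were chosen after their values were seen. AMBP and the ITIH genes stand in both of these lists, and SERPINC1 and SERPINF2 are also counted with coagulation.

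Coagulation genes were higher for 8 of 14, with the highest list median, 2.44. F2, prothrombin, read 1998 in liver and 4.72, 9.33, 20.3, 10.37, 3.505 and 11.66 in brain, heart, kidney, lung, muscle and spleen. Its difference of 4.66 ± 0.29 (adjusted p = 0.000303) was the only difference of a liver list gene among the 15 largest of all genes. KNG1, kininogen, the source of bradykinin, read 961.7 in liver and at most 1.7 elsewhere (3.83, adjusted p = 0.000468). KLKB1, prekallikrein, which cleaves kininogen, read 983.1 against 21.26 to 81.25 (3.06, adjusted p = 0.00241). PROC, protein C, an anticoagulant protease, read 441.1 and at most 1.25 elsewhere (2.83, adjusted p = 0.00146). KLKB1 and PROC were chosen after their values were seen. FGG, the gamma chain of fibrinogen, read 1476 in liver, 248.1 in kidney and 6.205 to 21.81 in the rest, the same order of tissues at the top as FGB. Its call (3.91 ± 0.77, adjusted p = 0.0282) held without kidney and was lost without any of the other 5 tissues in turn, with adjusted p of 0.0589 to 0.0661. FGA, the alpha chain, read 0.72 in liver and 196.2 in muscle, so this probe set was dim in liver; it was chosen after its values were seen.

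Lipoprotein and lipid transport genes were higher for 5 of 12, with a median of 1.79. APOH, a phospholipid-binding plasma protein, read 1798 in liver, 88.42 in kidney and 0.27 to 1.77 in the other 5 (4.49 ± 0.50, adjusted p = 0.0022). FABP1, the fatty acid-binding protein of the hepatocyte cytosol, read 552.8 in liver and at most 0.91 elsewhere (3.10, adjusted p = 0.000986). LPA, apolipoprotein(a), read 516.4 and at most 4.17 elsewhere (3.0, adjusted p = 0.00115). Its sequence resembles that of plasminogen, so the gene behind this value is uncertain. APOA2, another protein of high-density lipoprotein, chosen after its values were seen, read 354.5 against 0.18 to 8.75 (2.49, adjusted p = 0.00229). APOE, the ligand by which the liver takes up lipoprotein remnants, read 1316 in liver, 266.1 in brain, 238.3 in lung, 188.2 in kidney and at most 1.77 in heart, muscle and spleen. That spread left its difference of 3.22 ± 1.03 at an adjusted p of 0.184. Another APOE probe set gave 2.58 (adjusted p = 0.118) and was not called either. The dimmest APOE set in liver, with 92.34 to 183 in the 6 tissues, was called (1.62, adjusted p = 0.0133). Complement showed fewer calls, 1 of 11, with a median of 0.43. C3, the central component, read 875.2 against 40.43 to 93.81 (2.90 ± 0.30, adjusted p = 0.00169). CFB, factor B, read 1246 in liver, 234.1 in lung and 180.5 in kidney (3.37 ± 0.83, adjusted p = 0.0745), and its dimmer probe set was called (2.10, adjusted p = 0.0117). Without lung the brighter was called too (3.62, adjusted p = 0.0395).

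Among genes of the urea cycle and amino acid breakdown 4 of 21 were higher, with a median of 0.54. OTC, the urea cycle enzyme that joins ornithine to carbamoyl phosphate, read 498.8 in liver and 1.46 to 8.23 elsewhere (2.91 ± 0.28, adjusted p = 0.00141). FTCD, of histidine breakdown, read 813.2 in liver, 94.84 in kidney and 0.215 to 1.01 in the other 5 (3.41 ± 0.52, adjusted p = 0.0088). HPD and HGD, successive enzymes of tyrosine breakdown, were both higher. HPD read 372.7 in liver, 26.7 in kidney and at most 1.6 elsewhere (2.54, adjusted p = 0.00385). HGD read 748.4 against 3.205 to 69.89 (2.86, adjusted p = 0.00851), and its dimmer probe set rose as well (2.03, adjusted p = 0.0249). ASS1, a urea cycle enzyme that also makes arginine, chosen after its values were seen, read 571.1 in liver and 661.3 in kidney, and 18.94 to 50.45 in the other 5 tissues (2.19 ± 1.08, adjusted p = 0.503). The list also held members that were not higher in liver, such as TAT, tyrosine aminotransferase (chosen after its values were seen). TAT read 157.9 in liver against 59.14 to 211.8. CPS1, PCK1, CYP7A1, HNF4A, FASN and AFP were not analysed here.

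In methionine and one-carbon metabolism 1 of 9 genes was higher. ALDH1L1, a folate dehydrogenase, read 1261 against 25.28 to 97.08 (3.38 ± 0.33, adjusted p = 0.00141), while its dimmer probe set read 311.8 in liver and 309.8 in spleen (1.56, adjusted p = 0.563). GNMT, which uses up S-adenosylmethionine, read 263.6 in liver and 3.245 to 58.4 elsewhere (1.89 ± 0.43, adjusted p = 0.0566), and was called without lung (1.99, adjusted p = 0.0369). BHMT and MAT1A, other liver enzymes of this cycle chosen after their values were seen, read 58.8 against 70.6 to 139.3 and 4.215 against 14.82 to 28.1, both below every other tissue.

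Genes of glucose production, propionate entry, fructose and glycogen were higher for 3 of 13, with a median of 1.0. SLC37A4, which carries glucose 6-phosphate into the endoplasmic reticulum, read 1453 in liver and 137.3, 228.9, 143.9, 114.6, 161.7 and 108.7 in brain, heart, kidney, lung, muscle and spleen (2.81 ± 0.31, adjusted p = 0.00221), and its dimmer probe set gave 2.43 (adjusted p = 0.00445). PCK2, the mitochondrial phosphoenolpyruvate carboxykinase, read 375 against 12.31 to 90.43 (1.98 ± 0.40, adjusted p = 0.0312). PYGL, the liver glycogen phosphorylase, read 576.9 against 90.16 to 203.4 (1.66 ± 0.31, adjusted p = 0.0233). The calls of these last genes were lost without lung or without spleen, that of PCK2 also without brain or muscle, and that of PYGL also without heart, with adjusted p of 0.052 to 0.0613. KHK, fructokinase, read 596.3 against 78.45 to 256.7 (1.73, adjusted p = 0.073), and was called without spleen (1.87, adjusted p = 0.0241). The enzymes that bring propionate into metabolism were bright in kidney too (all chosen after their values were seen). MMUT, methylmalonyl-CoA mutase, read 570.7 in liver and 600.7 in kidney. PCCB, a chain of propionyl-CoA carboxylase, read 512.1 in liver, 853 in kidney and 328.7 in heart, and PCCA, the other chain, read 193 in liver and 463.5 in kidney. Their differences were 1.53, 1.06 and 0.20, and none was called.

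Fatty acid oxidation and ketone body synthesis had no call in 16 genes, with a median of 0.50, and liver was the brightest tissue for 2. Peroxisomal oxidation had none in 9 (median 0.65). ACAA1, the peroxisomal thiolase, chosen after its values were seen, read 1251 in liver and 2248 in kidney against 129.6 to 398.2 in the other 5, and CRAT, carnitine acetyltransferase, 807 in liver against 147.5 to 319.8 (1.45, adjusted p = 0.0821). Synthesis of fatty acids and triglycerides had none in 11 (median 0.10). ACLY, which makes acetyl-CoA for lipid synthesis, read 33.27 in liver and 989.7 in brain (-1.49, adjusted p = 0.732), and SCD, a desaturase, 20.04 in liver and 476.2 in lung (-1.27, adjusted p = 0.772); both were chosen after their values were seen. In sterol synthesis 1 of 11 was higher, with a median of 0.04. MVD, mevalonate decarboxylase, read 562.6 against 5.995 to 17.53 (2.92 ± 0.29, adjusted p = 0.00147).

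Bile acid genes were higher for 2 of 7, with a median of 0.04. ABCB4, which exports phosphatidylcholine into bile, read 1497 in liver and 18.91, 25.07, 30.17, 19.17, 25.01 and 24 in brain, heart, kidney, lung, muscle and spleen (4.04 ± 0.27, adjusted p = 0.000363). The other 6 tissues lay close together and far below the liver. SLC27A5, the ligase that activates bile acids for conjugation, read 736.1 against 72.34 to 155.7 (2.25 ± 0.30, adjusted p = 0.00451). Its relative SLC27A2, a very-long-chain acyl-CoA synthetase chosen after its values were seen, had probe sets that went opposite ways, -1.37 and 1.39, neither called.

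Cytochromes P450 and other oxidising enzymes were higher for 5 of 31, with a median of 0.13. ADH1C, an alcohol dehydrogenase, read 2024 in liver, 265 in kidney and 50.31 to 89 in the other 5 (3.70 ± 0.52, adjusted p = 0.00616), and without heart and muscle its adjusted p was 0.0539. ADH1A, a near-identical relative whose probes may read the same transcript, read 716.9 against 1.06 to 12.54 (3.36 ± 0.29, adjusted p = 0.000846). CYP2E1, which oxidises ethanol and small solvents, had 3 probe sets with values and all were higher, by 2.61 (adjusted p = 0.00177), 2.57 (adjusted p = 0.00192) and 2.85 (adjusted p = 0.00141). FMO1, a flavin monooxygenase, read 306.1 against 2.765 to 22.5 (2.22, adjusted p = 0.00507). Probe sets disagreed for ADH6 and FMO5, both chosen after their values were seen. They stood for ADH6 at -0.28 for the brighter set and 2.77 for the dimmer (adjusted p = 0.00154), and for FMO5 at -0.15 and 2.84 (adjusted p = 0.0589). Of the conjugating enzymes and hydrolases 2 of 20 were higher, with a median of -0.03. GSTO1, a glutathione transferase, read 517.8 against 13.21 to 131.8 (2.18 ± 0.47, adjusted p = 0.0432), and SULT2A1, which sulfates bile acids and steroids, 439.3 against 85.99 to 175.2 (1.37 ± 0.28, adjusted p = 0.0318). The first call was lost without kidney, lung, muscle or spleen in turn (adjusted p of 0.0779 to 0.0852) and the second without brain, heart, muscle or spleen (0.0575 to 0.0672).

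Genes of iron, copper, heme and selenium were higher for 3 of 21, with a median of 1.60, and liver was the brightest tissue for 13. Metallothioneins, small proteins that bind zinc and copper, gave the brightest values of this list. MT1F read 2308 in liver, 304.5 in kidney, 75.39 in brain and 7.42 to 42.9 in the rest (4.28 ± 0.81, adjusted p = 0.0238). MT2A read 1902 in liver, 307.3 in kidney and 12.34 to 83.08 in the rest (3.72 ± 0.71, adjusted p = 0.0242). MT1X read 2217 in liver and 450.9 in kidney (4.08, adjusted p = 0.0598), its dimmer probe set was called (3.99, adjusted p = 0.00637), and without kidney so was the brighter (4.46, adjusted p = 0.00445). The metallothionein symbols belong to a family of near-identical human copies, so these values are uncertain as to the bovine gene. The calls of MT1F and MT2A were lost without lung or without spleen, that of MT1F also without heart or muscle and that of MT2A also without brain, with adjusted p of 0.0504 to 0.0586.

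Of liver hormones, binding proteins and receptors 2 of 16 were higher, with a median of 0.26. MST1, the macrophage-stimulating protein, read 531.2 in liver, 46.14 in brain and 2.85 to 12.02 in the rest (2.87 ± 0.37, adjusted p = 0.00386), and its dimmer probe set gave 1.76 (adjusted p = 0.0663). ASGR1, a chain of the receptor that clears desialylated glycoproteins, read 399.9 against 0.91 to 7.38 (2.65 ± 0.28, adjusted p = 0.00188). IGF1, the growth factor that the liver releases under growth hormone, read 462.5 in liver and 1988 in spleen, and 59.17 to 390.2 in the rest (0.78 ± 1.33, adjusted p = 0.926). Its other probe sets gave -0.55 and -0.32, and the mean over its probe sets was -0.03. HAMP, hepcidin, chosen after its values were seen, read 200.6 in liver and 119.8 to 208.4 elsewhere.

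Transcription factors of the liver were higher for 2 of 8, with a median of 0.89. ONECUT1 read 332.8 against 2.38 to 24.78 (2.29 ± 0.32, adjusted p = 0.00541), and FOXA1, which opens chromatin at liver genes, 405.5 against 16.38 to 57.64 (2.12 ± 0.33, adjusted p = 0.00902). CEBPA, a factor of both liver and fat, read 396.4 in liver, 228.5 in lung and 218.6 in spleen (1.46, adjusted p = 0.402). The secretory pathway, which folds and exports plasma proteins, had 2 of 39 genes higher (5.13%), close to the 4.89% of all genes. Liver was the brightest tissue for 23 (59%), against 16.5% of all genes, and the median difference was 0.95. CALR, a chaperone of the endoplasmic reticulum, read 1047 against 54.86 to 245.7 (2.60 ± 0.57, adjusted p = 0.0458; dimmer probe set 1.11, adjusted p = 0.0934), and LMAN2, a cargo lectin, 293.3 against 3.49 to 81.25 (1.94 ± 0.43, adjusted p = 0.0484). Each of these calls was lost without any of 5 tissues in turn, every one but lung for CALR and every one but spleen for LMAN2, with adjusted p of 0.0591 to 0.0956. SEC61A1, the channel into the endoplasmic reticulum, read 323.8 against 0.71 to 97.32 (2.02, adjusted p = 0.12), and XBP1, a factor that expands this pathway, 460.5 against 33.06 to 162.1 (1.73, adjusted p = 0.165).

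Markers of the other cells of a liver were also counted. Kupffer cells and macrophages had no call in 15 genes, and their summed intensity was 2955 in liver against 1204 in heart and 7453 in spleen, the lowest and highest of the other tissues. Endothelium had 1 of 10, and its sum of 2726 lay above all 6 tissues (1697 in brain to 2371 in spleen). That gene was KDR, a receptor for vascular endothelial growth factor, at 331.4 against 2.07 to 61.02 (2.05 ± 0.40, adjusted p = 0.0278), a call lost without heart (adjusted p = 0.058) or lung (adjusted p = 0.0551). Bile duct genes had none of 4, with a sum of 440 below every other tissue (513 in muscle to 5960 in kidney). Stellate cell, fibroblast and matrix genes had none of 15, with a median of -0.96 and a sum of 4315, below every other tissue (6595 in brain to 12782 in lung). Lymphocyte and MHC genes had 1 of 12, CD37 at 325.7 against 7.1 to 70.51 (1.82, adjusted p = 0.0448), which was lost without any of the 6 tissues but spleen (adjusted p of 0.0578 to 0.0808). The liver sum for lymphocyte genes was 2424 and that of spleen 10764.

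Genes that mark the other tissues were also summed. Heart markers summed to 555 in liver and 23254 in heart, skeletal muscle markers to 645 in liver and 19897 in muscle, and brain markers to 1193 in liver and 7458 in brain. Lung markers summed to 1521 in liver and 5479 in lung, but liver was the brightest tissue for 2 of the 7, and CLDN18, a tight junction protein, and NKX2-1, a lung and thyroid factor, differed by 1.16 and 1.01 (adjusted p = 0.116 and 0.162; chosen after their values were seen). Kidney markers summed to 1235 in liver and 2912 in kidney, and red cell genes to 261 in liver against 259 to 639. No gene of these lists, nor of that for smooth muscle, was called. The spleen list had only 3 genes with values, and its sum was lowest in spleen itself (304), so it did not mark that tissue. One of them, BLK, a kinase of B cells, was called in liver (411.1 against 0.98 to 29.29; 2.56, adjusted p = 0.00416). Cytosolic ribosomal proteins had no call in 49 genes. Oxidative phosphorylation had 1 in 47, NDUFA7, a subunit of complex I, at 335.3 against 6.55 to 19.17 (2.28, adjusted p = 0.00379), while NDUFB1, another subunit, read 63.29 against 259.7 to 945.9 (-2.01, adjusted p = 0.145).

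The largest differences came mostly from genes outside the liver lists, which were also most of the genes (6448 of 6732). Of the 15 largest called rises F2 alone was in a liver list. LHX1, a homeobox factor of kidney and brain development, read 8428 in liver, 0.18 in kidney, 0.095 in muscle and 0 in brain, heart, lung and spleen (6.88 ± 0.27, adjusted p = 0.000145). Values this low have no order among themselves. IBSP, bone sialoprotein, read 6224 in liver, 125.3 in muscle and 2.23 to 12.16 in the rest (6.11, adjusted p = 0.001). ZNF574 (5.92), WDR25 (5.79), FUT4 (5.79), MAP3K1 (5.66), UPF1 (5.62), EPM2A (5.50), HERC2P3 (5.29), CSNK1D (5.22), FBXO24 (5.03), TEC (4.97), RBFA (4.83) and HRH1 (4.69) followed, with liver between 1891 and 5534 and no other tissue above 58.74. Human probe sets gave these values, and which bovine transcript each of them read was not tested. The symbol HERC2P3 was not matched in the bovine RefSeq table. With an offset of 1 IBSP (adjusted p = 0.0578), FBXO24 (0.0563) and HRH1 (0.0504) were no longer called. List genes made up 1 of the 15 largest rises (6.67%), 6 of the largest 30 (20%) and 12 of 50 (24%). They were 24 of the largest 100 (24%) and 49 of all 329 (14.9%), beside 284 of all 6732 genes.

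**Figure D3:**
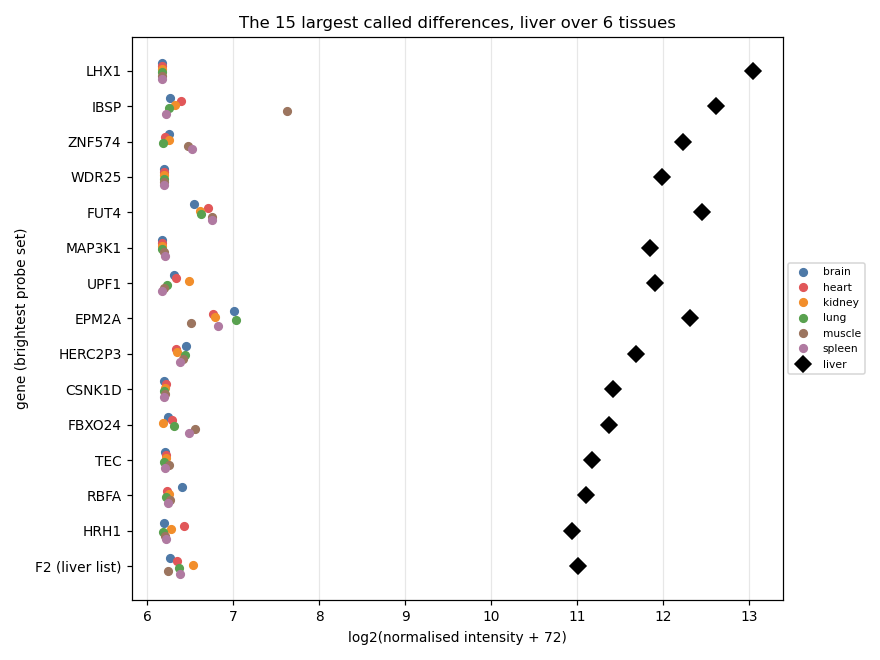
Normalised intensity on the scale log2(intensity + 72) for the 15 genes with the largest called differences, liver as a black diamond and the 6 other tissues as coloured dots, 1 array each. Only F2 is in a liver list, and the other tissues cluster near the floor of the scale.

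Other probe sets of a called gene, read on the same RNA, were set beside it where they had values, which was so for a minority of the called genes. Of the 49 list genes called higher, 12 had other probe sets, 15 in all, and 12 of these (80%, 95% exact interval 51.9 to 95.7) were also at least 2-fold higher than the mean of the 6 tissues. Of the 15, 6 were called higher, none was negative, and the median was 1.76. Of the 280 called genes of no list, 52 had 63 other probe sets, of which 11 (17.5%, 9.05 to 29.1) were at least 2-fold higher, 5 were called higher, 33 were negative and the median was -0.02. Over all genes 186 of 2115 other probe sets (8.79%) reached 2-fold, and 98 (4.63%) were called. The intervals treat probe sets as independent, which those of 1 gene are not, and the share difference was not tested. The brightest probe set was chosen on a mean that includes liver, which favours sets bright in liver alone. Starting from every called probe set in turn, in place of the brightest, gave 27 of 33 (81.8%) and 31 of 201 (15.4%). Among the 15 largest rises EPM2A, the glycogen phosphatase laforin, had other sets at -0.09 and -0.97, with liver inside or below the range of the other tissues. CSNK1D, a casein kinase, had another at 1.61 (adjusted p = 0.155). The other 13 had no second probe set with a value.

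**Figure D4:**
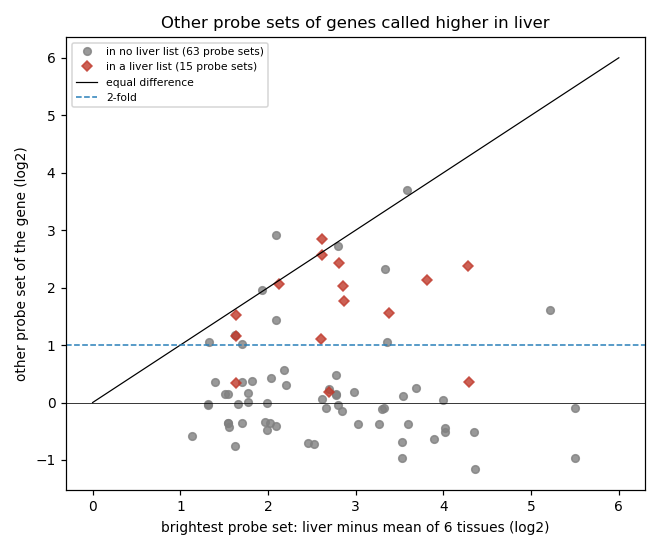
Difference of the brightest probe set (horizontal, log2) against that of each other probe set of the same gene (vertical, log2) for genes called higher in liver, with 15 probe sets of list genes as red diamonds and 63 of other genes as grey dots. Most diamonds lie above the dashed 2-fold line (12 of 15), while 33 of the grey dots lie below 0.

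Some called genes outside the lists had another probe set at least 2-fold higher, and those given here were chosen after their values were seen. CD46, a regulator of complement on cell surfaces, gave 3.59 (adjusted p = 0.00071) and 3.70 (adjusted p = 0.000579), with liver at 890.8 and 902.1 and no other tissue above 19.44. LBP, the plasma protein that binds bacterial endotoxin, gave 3.36 (adjusted p = 0.000753) and a much smaller 1.05 that was not called (adjusted p = 0.158). SDC2, a cell surface proteoglycan, gave 2.09, 2.91 and 1.43. SLC9A2, a sodium-proton exchanger, gave 3.33 and 2.32. KDM5B, a histone demethylase, gave 2.80 and 2.73 in these sets and -0.05 in another. Of these CD46, LBP, SLC9A2 and KDM5B were not called with an offset of 1 (adjusted p of 0.0536 to 0.109). Plasma proteins outside the lists also appeared among the largest differences with a single probe set, and those named were chosen after their values were seen. HPR, a close relative of haptoglobin, read 1988 in liver and 0.7 to 51.21 elsewhere (4.57, adjusted p = 0.000586), and it was not called with an offset of 1 (adjusted p = 0.0785). Its sequence is close to that of haptoglobin, so the gene behind this value is uncertain. FGL1, a fibrinogen-like liver protein, read 2369 in liver, 249.4 in kidney and 41.04 to 62.6 in the rest (4.09, adjusted p = 0.00514). Of the 329 genes called higher, 31 (9.42%) had a symbol not matched in the bovine RefSeq table, against 5.81% of all genes.

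Genes called lower in liver numbered 24 (0.357% of all 6732), and none was among the 284 list genes. A share this small leaves little to read from that absence. PPARG, the nuclear receptor that drives fat cell formation, read 14.84 in liver and 539, 457.3, 553.8, 419.4, 499.8 and 441.2 in brain, heart, kidney, lung, muscle and spleen (-2.68 ± 0.27, adjusted p = 0.00148). The 6 tissues were alike and liver stood alone below them, and PPARG had no second probe set with a value. EFCAB14 read 4.69 against 283 to 514.3 (-2.47 ± 0.31, adjusted p = 0.00386), but its other probe sets gave -0.62 and -0.14. STAT3, the factor that carries interleukin signals to acute phase genes, read 7.01 against 146.3 to 433.4 (-2.12 ± 0.47, adjusted p = 0.0484), and its other probe set 143.6 against 139.6 to 212.7 (-0.11, adjusted p = 0.935). PRMT8 (-1.98), MAX (-1.96), DIP2C (-1.88), E2F3 (-1.86), ATMIN (-1.80), HES2 (-1.76), INTS15 (-1.72), CYP4B1 (-1.64), OR10H1 (-1.60), CCNA1 (-1.59), FRY (-1.57) and TMEM131 (-1.55) were the next largest. MAX, the partner of MYC, read 128.1 against 579.5 to 1023, and CCNA1, a cyclin, 15.96 against 172.8 to 230.7. Other probe sets of DIP2C, INTS15 and FRY gave -0.03, 0.16 and 0.33, and that of ATMIN -0.39. Over all 24 genes, 9 had 10 other probe sets, and 0 of these were called or at least 2-fold lower. Of all probe sets tested only 0.285% were called lower.

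Several of these lower calls lay close to the threshold. The count of 29 lower probe sets fell to 15 without brain, 18 without heart and 18 without kidney. Without brain the calls of STAT3, DIP2C, E2F3, ATMIN, CYP4B1, OR10H1 and MAX were lost, and without heart those of STAT3, DIP2C, ATMIN, CYP4B1 and FRY. Without lung the calls of STAT3, DIP2C, CYP4B1, OR10H1 and FRY were lost, and without muscle those of STAT3, DIP2C, E2F3 and CYP4B1. Kidney left out ended those of STAT3, E2F3 and FRY, and spleen those of DIP2C and ATMIN. The adjusted p of these was 0.0507 to 0.103, while the differences moved little, from -2.01 to -2.23 for STAT3 and from -1.83 to -1.93 for DIP2C in the fits that lost the call.

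Among the 6 tissues, kidney had the smallest median difference from liver over the list genes. The medians keep the sign of each difference, so they do not measure how alike the tissues are. Over the 284 list genes the median difference of liver from kidney was 0.39, against 0.53 from spleen, 0.54 from lung, 0.63 from heart, 0.67 from muscle and 0.85 from brain. Over all genes these medians ran from -0.01 to -0.07. Kidney was the brightest of the 6 tissues for 20 of the 49 called list genes (40.8%) and for 58 of the 280 other called genes (20.7%). Of the 49 called list genes, 27 had all 6 tissues under the offset, where the order of dim tissues carries little weight. SERPINC1, for example, read 1.6 in kidney and 0.35 to 0.485 in the other 5. How many of the 20 were of this kind was not counted. Liver and kidney were both at least 2-fold above the other 5 tissues for 27 genes (0.401% of all), of which 18 are in a liver list, 6 have a metallothionein symbol and 8 were called by limma. DIO1, the deiodinase that activates thyroid hormone in both organs, read 611.1 in liver, 430.6 in kidney and at most 3.03 in the other 5 (2.75, adjusted p = 0.303). UGT2B28, a glucuronosyltransferase, read 1339 and 395 and at most 11.02 elsewhere. CFI, complement factor I, read 1294 and 1026 against 11.1 to 259.1. FAH, the last enzyme of tyrosine breakdown, read 272.3 and 182.7 against 1.46 to 19.91, and DPYS, of pyrimidine breakdown, 406.3 and 177 against 0 to 2.14. BBOX1, the last enzyme of carnitine synthesis, read 317.3 and 295.4 against 1.075 to 21.01. In 6 genes kidney was the brighter, namely ASS1, ACAA1, GATM, CTSV, DHRS1 and HADHB. GATM, the first enzyme of creatine synthesis, read 605 in liver and 1105 in kidney against 46.14 to 160.2. These genes were chosen from the 27 genes bright in both liver and kidney, after their values were seen. With 1 array each, the difference between liver and kidney has no replicate check.

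**Figure D5:**
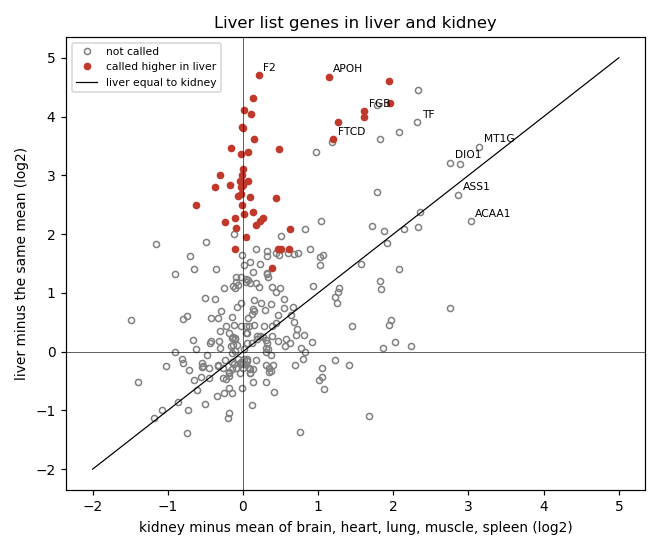
Each list gene's difference of kidney (horizontal) and of liver (vertical) from the mean of brain, heart, lung, muscle and spleen, in log2 units of intensity + 72, with genes called higher in liver in red and a line where liver equals kidney. ASS1 and ACAA1 lie on the kidney side of the line, MT1G and DIO1 near it, and F2 far above it.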

How the data were processed

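Total RNA of 7 adult bovine tissues and 3 embryo pools had been hybridised to a human array. The values deposited by the authors are linear intensities, 1 for each probe set of an array. Not given in the sources used here are their software, their scaling and why 12064 probe sets are blank. The 10 arrays were quantile normalized and transformed to log2(intensity + 72), 72 being the 25th percentile. Liver was set against the 6 tissues with limma 3.58.1 in R 4.3.3 (lmFit, eBayes with trend and robust settings, 5 residual degrees of freedom before moderation, two-sided, Benjamini-Hochberg over 10186 probe sets, threshold 0.05), with no filter on dim probe sets, since a gene kept through liver alone would have to differ. A separation of 2-fold from every tissue was a second rule without a test; an exact permutation of 7 arrays cannot go below 0.143. The limma fit was tested on simulated data. The number of arrays limits the precision.

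Symbols came from the platform annotation (8847 probe sets with 1 symbol, 479 with several, 860 with none; only the first kind named a gene), and 94.2% of the 6732 genes matched the bovine RefSeq table of assembly ARS-UCD2.0. No coordinates or sequences were used here. For each gene the probe set with the highest mean over the 7 adult arrays stood for it. Genes named were the 4 markers, the 15 largest called differences each way that were at least 2-fold beyond all 6 tissues, up to 4 called or separated genes per list, 14 genes named whatever their result, and disagreeing probe sets of these; others are said to be chosen after their values were seen. The comparison, the 34 gene lists and the rule were chosen with earlier results of these data known. Alternatives were the scaling, the offset, filters, 1 probe set per gene, the variance model, the fold limit, each tissue left out, and, added after the data were seen, heart and muscle left out together, probe sets ending in x_at left out, and every called probe set in turn. Plots used Python 3.11.15 with matplotlib 3.10.9.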

Additional observations from a re-analysis of the deposited data

Results flagged for a closer look

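Among the 6 tissues compared with liver, 1 tissue lay far from the other 5 in 19 named genes. The limit was a gap that repeats would give by chance in about 1 of 20 groups. Different tissues are not repeats, so that rate does not apply here. Kidney was the high one for FGB (160), FGG (248.1), APOH (88.42), FTCD (94.84), HPD (26.7), ADH1C (265), MT1X (450.9), AMBP (7.33), SERPINC1 (1.6) and OR10H1 (234.2). Of these FGB, FGG, APOH, FTCD, ADH1C, MT1X and OR10H1 were above the offset of 72 in kidney. Muscle was the high one for IBSP (125.3), EFCAB14 (514.3) and ADH1A (12.54), heart for HRH1 (14.17), ITIH4 (1.6) and LPA (4.17), brain for RBFA (12.88) and MST1 (46.14), and spleen for LMAN2 (81.25). Among the muscle, heart, brain and spleen genes, only IBSP, EFCAB14 and LMAN2 were above the offset in that tissue. Below the offset the order of tissues carries little weight. Liver lay beyond the high tissue for all 19 genes but OR10H1 and EFCAB14, which were called lower.

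The embryo arrays, which the comparison did not use, gave a mean of 540.3 for GNMT, above the liver at 263.6 and above the highest of the 6 other tissues, 58.4.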

How the results depend on the processing

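Liver was compared as a single array, so nothing here speaks of other livers, and levels near the offset of 72 set the size of many differences. No paired analysis was possible because each tissue had 1 array. On the values as deposited the median difference was -0.39, with 373 probe sets higher and 23 lower, and 117 probe sets at least 2-fold below all 6 tissues; 43 liver list genes were called. With an offset of 1 there were 86 higher and 53 lower, 469 below all 6 tissues, 9 list genes called, 100% of other probe sets of called list genes at 2-fold, and 55 genes shared with kidney. With an offset 4 times larger 12 were lower, 316 above and 4 below all 6 tissues, other probe sets outside the lists were at 7.69% and 8 genes were shared with kidney. A filter at the 75th percentile left 17 lower and 100% of list probe sets at 2-fold, and 1 probe set per gene gave 326 higher and 377 above all 6. A 4-fold limit gave 275 above, 3 below and 4 shared with kidney, and any amount gave 1716, 2144 and 326. With each tissue left out in turn, 439 to 474 were higher and 15 to 24 lower, and 40 to 56 list genes were called. Without heart and muscle together 151 were below all the remaining tissues and 44 shared with kidney, with fewer tissues to pass in each count. TF, CP, MT1X, CFB, GNMT and KHK became called when their brightest other tissue was left out, which raises the difference by construction. FRY was 0.33 by the probe set with the widest spread and IGF1 -0.03 by the mean over its probe sets. Of 1320 values of 88 named genes under the alternatives, 1130 kept direction and side of the threshold, 164 were no longer called, 24 became called and 2 changed sign; 26 genes kept both under every alternative tried. As deposited, the calls of STAT3, DIP2C, E2F3, ATMIN, FRY, PCK2, PYGL, SULT2A1, CALR, LMAN2, KDR, CD37, ITIH2 and SERPINF2 were lost; the cause was not tested.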
